A study of Homo sapiens with 19 samples.

Results

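PRPH encodes peripherin, an intermediate filament protein of peripheral neurons. It was studied here with 9 other intermediate filament genes: NES, NEFL, NEFM, INA, DES, GFAP, KRT8, KRT18 and KRT19. The 10 genes are 10 of the 20503 gene symbols that a probe of the array could be matched to through its RefSeq accession. They were chosen with their signals on these arrays known, PRPH for its increasing signal and the others as relatives in the same gene family, so their own values are given as a description and without p-values.

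KhES-3 cells, of a line of human embryonic stem cells (hESCs), were used, and all samples shared 1 treatment, the induction of differentiation into brown adipocytes (BAs). For this, the cells were moved to low-attachment dishes with a serum-free BA medium that held IGF-II, BMP4, VEGFA, KITLG, FLT3LG and IL-6. Total RNA was harvested once at each of 19 time points, which were 3 and 4 h after the induction, every 2 h from 6 to 16 h, every 4 h from 20 to 36 h and every 6 h from 42 to 72 h, and each sample was hybridized to 1 one-colour array. There was no sample at 0 h and no replicate, so the spread between cultures is unknown. The labels describe hESCs grown on irradiated mouse fibroblasts, whereas the methods describe a feeder-free system.

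Signals are the scanner's processed intensities, scaled so that the 75th percentile of every array equals 725.1, the value at 8 h. Between 49.6% and 64.7% of the probes of an array were well above background. The dimmest such probe on the arrays of 14, 16, 20 and 72 h had an intensity of 67.9, 56.1, 40.9 and 39.4, against 19.0 to 29.2 on the other 15 arrays. The 6 arrays from 3 to 12 h lay on 1 slide, the 8 from 14 to 42 h on another and the 5 from 48 to 72 h on the last, so that slide and time overlap in part. All 9 pluripotency genes with a probe were well above background on all 19 arrays. In place of a replicate error, the scatter between neighbouring arrays is given for each gene: the SD in log2 units computed from the differences between arrays next to each other in time, which had a median of 0.16 over the 16694 genes tested.

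Intermediate filaments are flexible cytoplasmic cables, built from proteins that share a long coiled rod and pair through it. Keratins are obligate heteropolymers of an acidic type I chain (KRT18, KRT19) and a basic type II chain (KRT8), and this simple-epithelial set is also made by undifferentiated hESCs. Peripherin, desmin (DES) of muscle, GFAP of astrocytes and vimentin (VIM) are type III proteins that can assemble alone, whereas the neurofilament chains NEFL, NEFM and NEFH, alpha-internexin (INA) and nestin (NES) are type IV proteins typical of neurons and their precursors. Because whole cultures were measured, more RNA per cell and more cells of one kind cannot be told apart.

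The sequences just upstream of the start are shown for PRPH and INA, whose signals were higher late than early, and for NES, whose signal was lower. Each is the 250 bases before the start in RefSeq (GRCh38.p14), 5' to 3' on the strand of the gene, and capitals mark matches on either strand to TATAAA, the TATA box, or to GGGCGG, a GC box, which reads CCGCCC on the other strand. The regions are chr12:49294897-49295146 (+) for PRPH, chr10:103276888-103277137 (+) for INA and chr1:156677408-156677657 (-) for NES.
PRPH: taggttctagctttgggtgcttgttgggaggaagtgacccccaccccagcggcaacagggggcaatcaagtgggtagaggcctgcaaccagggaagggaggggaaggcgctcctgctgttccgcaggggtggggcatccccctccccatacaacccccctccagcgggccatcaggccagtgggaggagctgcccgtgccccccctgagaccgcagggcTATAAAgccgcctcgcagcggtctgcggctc
INA: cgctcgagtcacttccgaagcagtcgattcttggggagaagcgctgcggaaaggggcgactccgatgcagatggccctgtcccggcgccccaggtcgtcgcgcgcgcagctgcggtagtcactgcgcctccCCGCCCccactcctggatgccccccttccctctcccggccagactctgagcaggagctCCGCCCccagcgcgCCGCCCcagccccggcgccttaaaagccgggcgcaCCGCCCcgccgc
NES: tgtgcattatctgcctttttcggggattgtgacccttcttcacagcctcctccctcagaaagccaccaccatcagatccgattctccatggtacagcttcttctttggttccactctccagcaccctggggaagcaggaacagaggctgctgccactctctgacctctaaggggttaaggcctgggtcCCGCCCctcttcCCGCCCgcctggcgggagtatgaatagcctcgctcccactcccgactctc
PRPH held a single TATAAA, with its first base at position -31 from the start, and 10.8% of the 34943 promoters of the same length held this motif. INA held 4 matches to GGGCGG and NES held 2, and 42.5% of all promoters held at least 1. None of the 3 held CCAAT, the CCAAT box, which 32.0% of promoters held. CANNTG, the E-box, was found 1 time in PRPH, 2 times in INA and 0 times in NES, and 61.8% of promoters held it. The G and C content was 66.8% for PRPH, 72.8% for INA and 58.0% for NES, against a median of 58.0%. These matches describe letters and are not known binding sites.

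PRPH had the largest difference between early and late samples among the 9 genes that were detected. Its signal on the first slide, in order of time from 3 to 12 h, was 489, 562, 522, 525, 606 and 628. On the second slide, from 14 to 42 h, it was 913, 528, 677, 916, 1000.1, 1161, 1513 and 1075. On the third slide, from 48 to 72 h, it was 1219, 1685, 2708, 1954 and 3994. Every array from 48 h onward was higher than every array up to 32 h, and the signal was higher than at the time point before in 14 of 18 steps. The geometric mean went from 523 over the early samples (3, 4 and 6 h) to 2765 over the late samples (60, 66 and 72 h), a 5.28-fold difference (2.40 in log2 units, scatter SD 0.32).

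The PRPH signal was not a smooth curve. The 14 h sample stood above both of its neighbours, and so did the 4, 36 and 60 h samples. In the order of its levels, the 72 h sample was farther above the 60 h sample, and the 60 h sample farther above the 66 h sample, than the scatter of a difference between neighbours. The other 16 of the 18 neighbouring pairs in that order were not. The slope on hours was 0.0375 log2 units per hour (SE 0.00292) over all arrays, and within the slides it was 0.0322 on the first, 0.0350 on the second and 0.0606 on the third. When the slide entered the fit as a block, the slope of PRPH was 0.0433 (SE 0.00846). Without the 72 h sample the log2 difference between late and early was 2.14.

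The difference was also read between shorter windows, which lay at unequal distances in time. From 3-6 h to 8-12 h the PRPH signal differed by 0.16 in log2 units, less than its scatter. Between 14-20 h and 32-42 h, both on the second slide, it differed by 0.84, and between 48-54 h and 60-72 h, both on the third, by 0.95. In these comparisons the median of all genes tested differed by -0.00, 0.01 and -0.02. The step between the first and second slides, from 12 to 14 h, was 0.54 for PRPH against a median of -0.19 for all genes, and the step from 42 to 48 h was 0.18 against -0.00. The course on the third slide depended on the scaling. Scaled to spike-in RNA, PRPH at 48, 54, 60, 66 and 72 h was 10.36, 10.93, 11.24, 10.06 and 11.10 in log2 units. On that scale the highest sample was at 60 h, and the 66 h sample was below that of 28 h (10.30).

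**Figure D1:**
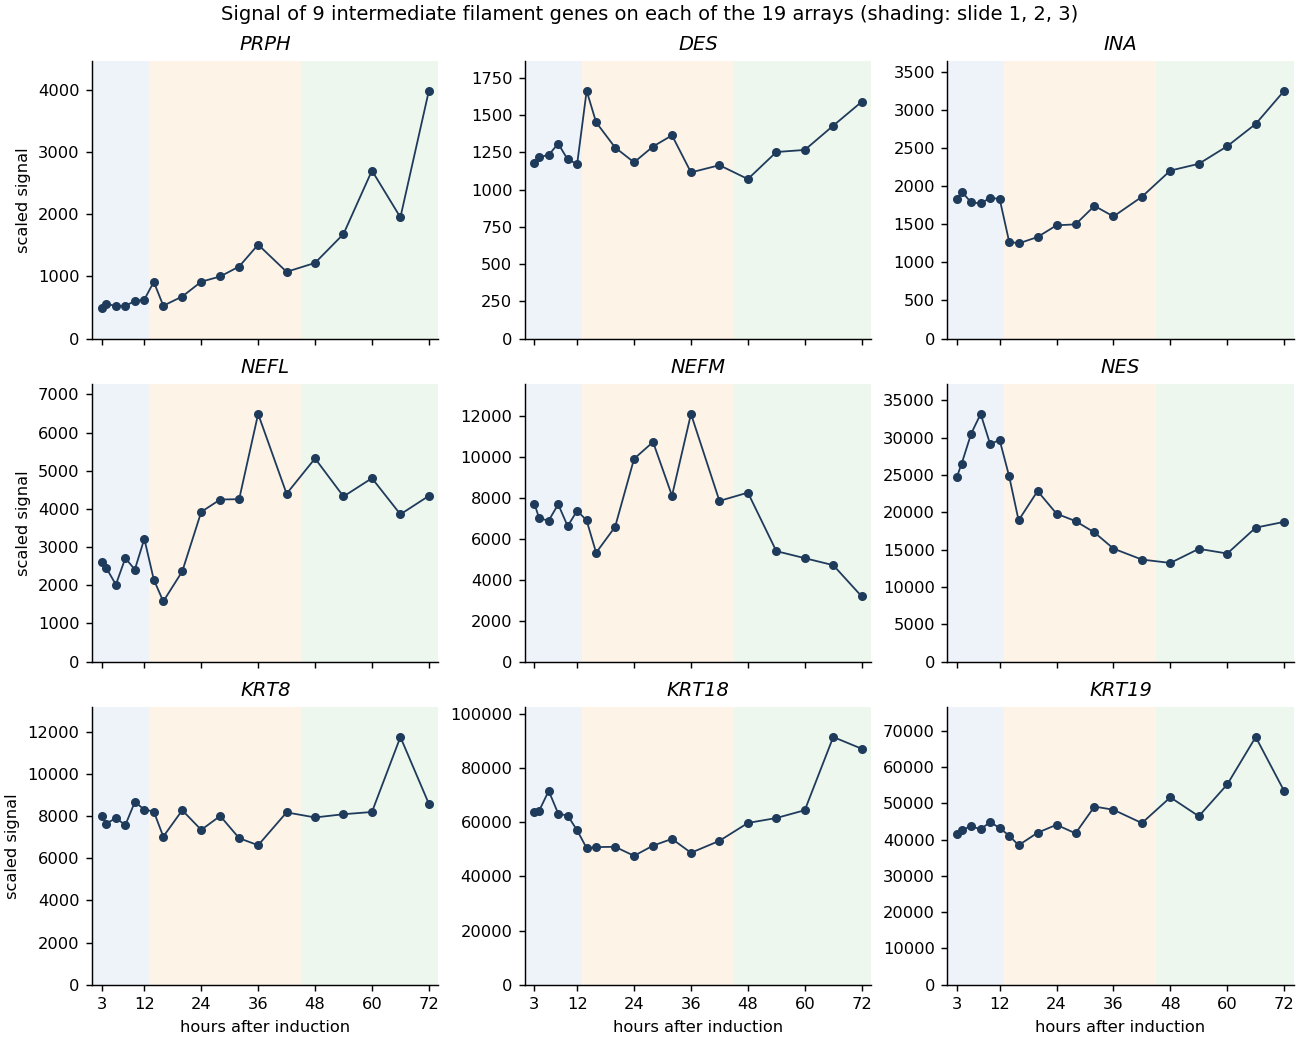
Scaled signal (vertical axis, linear, from 0) of each of the 9 detected genes against hours after induction, with 1 point per array and shading for the 3 slides. PRPH went from 489 at 3 h to 3994 at 72 h, NEFL and NEFM were both highest at 36 h, and the 3 keratins were all highest at 66 h on this scale.

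Of DES and GFAP, the other type III genes of the set, DES differed less between early and late samples than PRPH, and GFAP was not detected. DES, the filament that links the contractile units of muscle, had a lowest signal of 1070 at 48 h, a median of 1252 and a highest of 1663 at 14 h. The signal at 14 h stood 0.50 log2 units above that at 12 h, across the step between slides, and the next samples, of 16, 20 and 24 h, were at 1451, 1282 and 1183. The late samples were at 1266, 1429 and 1589. Within the slides the slope of DES was -0.000691, -0.0145 and 0.0222. Its early and late means were 1208 and 1422, 0.23 apart in log2 units with a scatter SD of 0.13, and this difference was -0.10 when arrays were scaled to their median and -0.35 when scaled to spike-in RNA. None of the 18 neighbouring pairs in the order of its levels were apart by more than the scatter.

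Of the 12 muscle markers, 8 were tested, 2 rose (MYH3 and TNNI1) and 3 fell (ACTA1, MYL4 and TNNT2), against 21.3% and 32.7% of all genes tested. ACTA1, skeletal muscle actin, went from 29234 to 10186 (limma adjusted p = 2.8e-09). The myogenic factor MYF6 and cardiac actin ACTC1 were well above background on no array. Some other myogenic factors of the list were well above background on all 19 arrays and were not called. Others were well above background on fewer arrays, in part on fewer than the 5 needed for a test. The summed signal of the list was 29487 to 30215 in the early samples and 9390 to 12124 in the late samples, most of it from ACTA1, whereas the median difference between late and early over the 8 tested markers was 0.33. The rises of MYH3 and TNNI1 were not called under the array median, spike-in or normexp scaling or with the slide as a block, where 0 muscle markers rose and 3 fell. In those settings, in that order, 1632, 599, 3728 and 705 of all 16694 genes rose and 7691, 7434, 4356 and 889 fell. The part of muscle cells in the DES signal was not tested.

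GFAP was well above background on 0 of 19 arrays with either of its 2 probes, whose scaled signals lay between 5.03 and 21.4, so no difference is given. Of the 6 astrocyte markers, 2 rose, AQP4 from 140 to 298 (limma adjusted p = 1.66e-05) and ALDH1L1 from 49.6 to 60.3 (adjusted p = 0.0483), and 1 fell, SLC1A2 from 183 to 72.2 (adjusted p = 0.000609). Over all genes tested, 21.3% rose and 32.7% fell. The sum over the astrocyte list was 28995 to 31150 early and 28118 to 33658 late. VIM, the type III filament of mesenchymal cells and of hESCs, was between 22152 and 40911 on the 19 arrays. It swung between neighbouring early arrays, with signals of 34647, 22152 and 40911 in the samples of 3, 4 and 6 h, and its slope on hours was -0.00173 (SE 0.00254, limma adjusted p = 0.589).

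The type IV genes did not move together. INA, which copolymerizes with the neurofilament chains, had a lowest signal of 1248 at 16 h, a median of 1827 and a highest of 3251 at 72 h. On the first slide it was nearly flat, between 1775 and 1929. On the second slide it was, in order of time, 1272, 1248, 1332, 1486, 1498, 1741, 1602 and 1860. From there it was higher at each later time point, with 2204, 2293, 2524, 2816 and 3251 on the third slide. All 5 samples of the third slide were above all 14 earlier ones.

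The early and late means of INA were 1846 and 2848, a difference of 0.63 in log2 units with a scatter SD of 0.13. The slope was -0.00296 on the first slide, 0.0203 on the second and 0.0236 on the third, and in the fit with a slide block it was 0.0201 (SE 0.00287). Between the first slide and the second there was a step of -0.53 from 12 to 14 h, against -0.19 for the median gene. Under spike-in scaling the difference between late and early INA signals was 0.04. On that scale INA at 48, 54, 60, 66 and 72 h was 11.21, 11.37, 11.14, 10.58 and 10.80 in log2 units. The steady increase over the third slide was therefore not seen on that scale.

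NEFL, the chain on which neurofilaments are built, and NEFM, the middle chain, shared a maximum at 36 h. NEFL had a lowest signal of 1577 at 16 h, a median of 3859 and a highest of 6490 at 36 h. Its early samples were at 2613, 2451 and 2017, those of 20 and 24 h were at 2364 and 3923, and from 24 h onward all 10 samples lay between 3859 and 6490, above the 9 earlier ones. From the early to the late samples the mean went from 2347 to 4319, a difference of 0.88 (scatter SD 0.28), which was 0.54 under the array median and 0.30 under spike-in scaling. The slope was positive on the first slide (0.0312) and the second (0.0586) and negative on the third (-0.0125), so that the higher late level was reached by 36 h. The change within the second slide, 14-20 h to 32-42 h, was 1.31 in log2 units.

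NEFM had a lowest signal of 3184 at 72 h, a median of 6992 and a highest of 12093 at 36 h. It stayed between 6613 and 7694 on the first slide, was 9901, 10721, 8099 and 12093 from 24 to 36 h, and on the third slide was 8251, 5393, 5051, 4709 and 3184. The 72 h sample was the lowest by more than the scatter of neighbouring arrays. Early and late means were 7182 and 4230, a difference of -0.76 (scatter SD 0.25), and without the 72 h sample it was -0.56. Within the slides the slope was -0.00487, 0.0235 and -0.0491.

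NEFL and NEFM lie next to each other in the genome, and their proteins assemble into the same filament. Across the 19 arrays their signals had a Pearson r of 0.20 and, after a straight line in hours was removed from both, of 0.87. These arrays share slides and scaling, and the values are a description. NEFH, the heavy chain, is no member of the set and took another course. From 3 to 14 h its signal was 10422, 11246, 9295, 8764, 5789, 4775 and 2939, and it lay between 5369 and 6680 on the third slide. The signal was already lower by the end of the first slide, where the slope was -0.135 log2 units per hour, and its straight-line slope over all arrays was -0.00347 (SE 0.00591, limma adjusted p = 0.645).

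**Figure D2:**
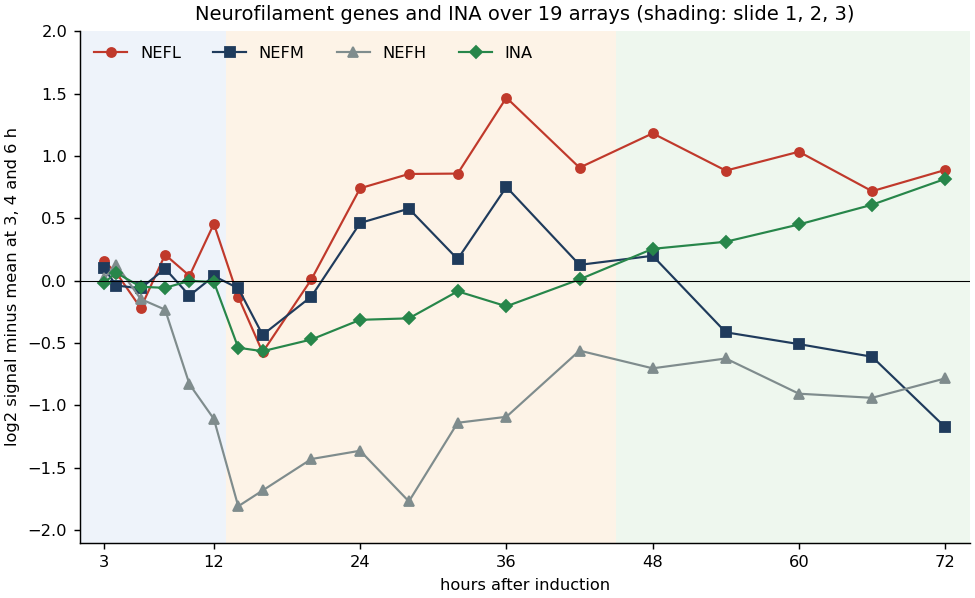
Log2 signal of NEFL, NEFM, NEFH and INA (vertical axis) minus the mean of the 3, 4 and 6 h samples, against hours after induction, with 1 point per array and shading for the 3 slides. NEFL and NEFM peak together at 36 h and then part, with NEFL 0.88 above and NEFM 0.76 below its early mean over the late samples, while NEFH is lowest at 14 h and INA is highest at 72 h.

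NES, a large filament protein of dividing precursor cells that is also present in hESCs, had its highest signal early and its lowest at 48 h. From 3 to 12 h its signal was 24775, 26554, 30556, 33202, 29162 and 29704, with the maximum at 8 h. On the second slide it was 24868, 18937, 22862, 19828, 18836, 17307, 15147 and 13680, lower at each time point after 20 h. On the third slide it was 13226, the lowest value of all, then 15117, 14487, 17958 and 18735. Early and late means were 27190 and 16955, a difference of -0.68 with a scatter SD of 0.14. The slope changed sign between slides, with 0.0265 on the first, -0.0264 on the second and 0.0209 on the third. A second NES probe, with signals from 3887 to 7531, gave a difference of -0.28 between late and early.

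Of the 9 detected genes, 4 had a rising slope past an adjusted p of 0.05 in the fit across all probes (PRPH, NEFL, INA and KRT19) and 1 had a falling slope (NES). Of all 16694 genes tested, 21.3% were called rising and 32.7% falling, and since the members were chosen with these signals known, nothing is read from their count. Scaled to the array median, the members called rising were 2 (PRPH and NEFL) and those falling 2 (NES and NEFM), and scaled to spike-in RNA they were 1 (PRPH) and 2 (NES and NEFM). After normexp and quantile normalization 6 were called rising, with KRT8 and KRT18 added, and 1 falling. Of all 16694 genes tested, 1632 rose and 7691 fell under the array median, and 599 rose and 7434 fell under spike-in scaling. After normexp and quantile normalization 3728 of them rose and 4356 fell. With the slide as a block, 2 of the 9 were called rising (PRPH and INA) and 0 falling, against 4.22% of all genes called rising and 5.33% falling. Rising genes were 39.4% of all genes called, and this share was 17.5% when arrays were scaled to their median and 7.46% when scaled to spike-in RNA.

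The keratins kept high signals throughout. KRT8 had a lowest signal of 6617 at 36 h, a median of 8007 and a highest of 11752 at 66 h. Apart from the 66 h sample, all were between 6617 and 8669, and only the step from 66 h to the next highest sample exceeded the scatter in the order of its levels. The early and late means were 7846 and 9386, a difference of 0.26 with a scatter SD of 0.15, and without the 66 h sample it was 0.10. A second KRT8 probe with signals from 261 to 529 gave 0.54.

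KRT18, the type I partner of KRT8, had a lowest signal of 47598 at 24 h, a median of 59738 and a highest of 91486 at 66 h. The early samples were at 63954, 64302 and 71591, all 8 arrays of the second slide were between 47598 and 53853, and the third slide gave 59738, 61569, 64452, 91486 and 87156. The samples at 66 and 72 h stood above the rest by more than the scatter of 0.11. Early and late means were 66525 and 80100, a difference of 0.27, which was 0.17 without the 66 h sample. Its other probe, with signals from 10873 to 26447, gave 0.35. KRT8 and KRT18 have many processed pseudogenes, and signal from such copies on the same probes could not be separated.

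KRT19, the smallest keratin, had a lowest signal of 38426 at 16 h, a median of 44068 and a highest of 68242 at 66 h. Its early samples were at 41649, 42692 and 43627 and its late ones at 55188, 68242 and 53353, so that the late samples were above all others on the 19 arrays. The means were 42648 and 58571, a difference of 0.46 with a scatter SD of 0.11. The slope was positive on each slide (0.00644, 0.00888 and 0.0109).

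The 66 and 72 h arrays were the dimmest of the 19 before scaling, with 75th percentiles of 525.5 and 535.2 against 619.0 to 800.3 on the others. Scaled to spike-in RNA instead, KRT18 was 15.61 at 66 h and 16.12 at 54 h in log2 units, so that the 66 h maximum was not seen. On the same scale the difference between late and early was -0.33 for KRT8, -0.32 for KRT18 and -0.13 for KRT19, and scaled to the array median it was -0.080, -0.070 and 0.12. The median of all genes tested differed between late and early by -0.11 under the 75th percentile, by -0.45 under the array median and by -0.69 under spike-in scaling. All 3 keratins were higher relative to this median. Each of these scalings shifts all genes of an array alike, so a value relative to the median is the same under each by construction. For PRPH the difference between late and early was 2.06 under the array median, 1.82 under spike-in scaling and 2.29 after normexp background correction and quantile normalization. PRPH was higher late, and NES and NEFM lower late, under all 4 scalings. NEFL and INA kept a positive difference under all 4, but under spike-in scaling neither slope was called. On that scale INA differed by 0.04. Its scatter SD of 0.13 was computed under the 75th percentile and not under spike-in scaling. The NEFL samples of 66 and 72 h (11.04 and 11.22 in log2 units) were then below those of 3 and 4 h (11.33 and 11.32).

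**Figure D3:**
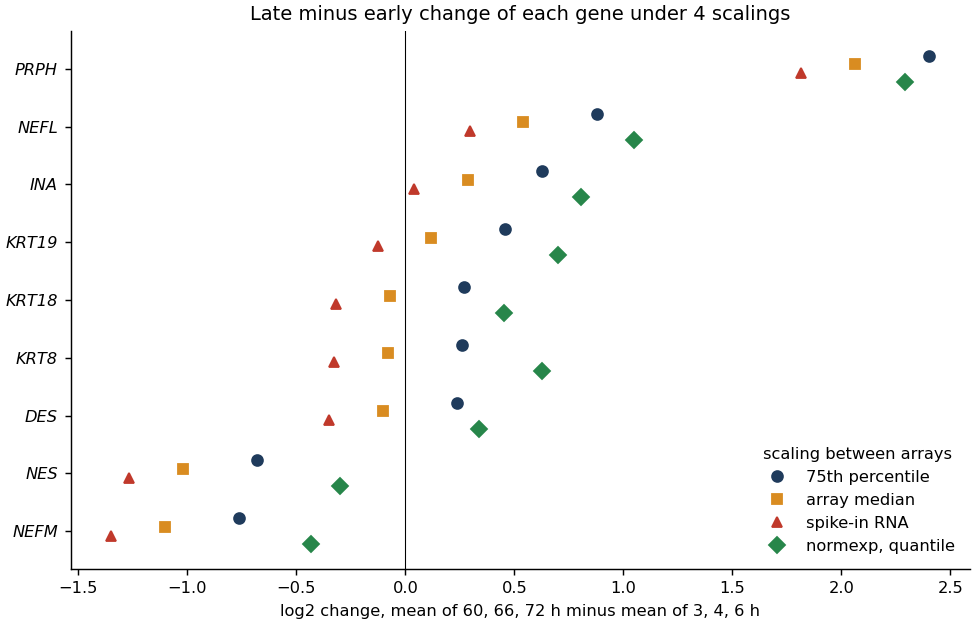
Difference between late (60, 66 and 72 h) and early (3, 4 and 6 h) samples in log2 units (horizontal axis) for each of the 9 genes, with 1 symbol for each of 4 ways of scaling the arrays. PRPH lies between 1.82 and 2.40 and NEFM between -1.35 and -0.43, whereas the symbols of DES and of the 3 keratins fall on both sides of 0.

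The markers of other cell types were read beside these signals. Over all 16694 genes tested, 21.3% rose and 32.7% fell, which is the background for each list below. Of the 23 neuron markers, 16 were tested, of which 3 rose and 5 fell. MAPT, the axonal tau protein, went from 311 to 897 (limma adjusted p = 3.01e-06), STMN2, a growth cone protein, from 135 to 295 (adjusted p = 9.35e-06) and SOX10 of the neural crest from 109 to 151 (adjusted p = 0.00213). Among those that fell, POU4F1, a sensory neuron factor, went from 218 to 47.1 (adjusted p = 0.0455), the dendritic MAP2 from 114 to 64.9 (adjusted p = 3.67e-05) and the neuronal tubulin TUBB3 from 45254 to 26714 (adjusted p = 1.08e-06). DBH, NEUROD1, NEUROG1, NEUROG2 and PHOX2A were well above background on no array. The summed signal of the list was 244624 to 260537 in the early and 168026 to 173550 in the late samples, carried mainly by UCHL1 (187640 to 126733) and TUBB3, whereas the median difference between late and early over the 16 tested markers was 0.05. The part of neuron-like cells in the PRPH, NEFL and INA signals was not tested.

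Of the 12 neural progenitor markers, 8 were tested, of which 1 rose (MSI1, 173 to 247) and 4 fell, the steepest being PAX6, FABP7 and SOX3. PAX6, an early neural factor, was well above background on all 3 early and 0 late arrays, at least 5.04-fold lower late (limma adjusted p = 0.000622). FABP7 went from 574 to 146 (adjusted p = 1.83e-09) and SOX3 from 10794 to 3616 (adjusted p = 1.01e-05). SOX1 and ZIC1 were well above background on no array. The sum over the list was 11827 to 16806 early and 4032 to 5281 late, so that it was lower in the samples in which NES was lower, and its part in the NES signal was not tested.

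Beside the keratins, 13 of 14 markers of simple epithelium and trophoblast were tested, of which 3 rose (HAND1, CGA and ELF3) and 4 fell, among them CDX2 and CLDN6. HAND1 went from 51.7 to 244 (limma adjusted p = 9.96e-05), and CLDN6, a tight junction protein of hESCs, from 19980 to 12189 (adjusted p = 4.69e-07). CGA, a trophoblast hormone chain, was well above background on 0 early and 2 late arrays, at least 2.05-fold higher late (adjusted p = 0.0147). The sum over the list was 86566 to 90963 early and 72270 to 84610 late. Of 10 fibroblast markers, 6 were tested, of which 1 rose (COL1A2, adjusted p = 0.0011) and 2 fell (PDGFRB and COL1A1), with FAP on no array, and the sum was 43783 to 46710 early and 31995 to 49027 late. Of the 9 pluripotency markers tested, 0 rose and 5 fell, including DNMT3B (limma adjusted p = 2e-06), ZFP42 (adjusted p = 5.94e-05) and L1TD1 (adjusted p = 0.00789), and the sum was 886476 to 901408 early and 613952 to 652401 late. The part of these cells in the keratin signals was not tested.

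With the slide as a block, MAPT was the only neuron marker called (limma adjusted p = 0.0118), FABP7 the only neural progenitor marker (adjusted p = 0.0046), CLDN6 the only epithelial one (adjusted p = 0.0242) and DNMT3B the only pluripotency marker (adjusted p = 0.0269). AQP4 (adjusted p = 0.0323) and ALDH1L1 (adjusted p = 0.0414) were called, and so were ACTA1, MYL4 and TNNT2, and 0 of the fibroblast markers. With that block 4.22% of all genes tested rose and 5.33% fell. Under spike-in scaling, 2 of the 16 neuron markers rose and 5 fell, 0 of the neural progenitor markers rose and 5 fell, 0 of the astrocyte markers rose and 1 fell, 1 of the epithelial markers rose and 6 fell, 0 of the fibroblast markers rose and 3 fell, and 0 of the pluripotency markers rose and 6 fell. In that setting 599 of all 16694 genes tested rose and 7434 fell. After normexp and quantile normalization, 2 pluripotency markers rose and 4 fell, against 3728 and 4356 of all genes.

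The genes most like PRPH in their course were sought among 13968 genes well above background on all 19 arrays, by Pearson r. The 5 highest were ALPG, a placental-like alkaline phosphatase (r = 0.97), GSDMB, a gasdermin (0.96), CNTNAP1, an axonal membrane protein (0.96), SNX32 (0.95) and STON1 (0.95). ALPG went from 4557 to 30952 between the early and late samples. After a straight line in hours was removed, the 5 highest were CNTNAP1 (r = 0.73), KISS1R (0.72), ALPG (0.71), C20orf96 (0.69) and MAPT (0.69). The plain r with PRPH was only 0.14 for KISS1R, which went from 388 to 330 between early and late samples, and 0.52 for C20orf96. Only ALPG was also among the 5 genes with the highest Spearman rho. MAPT was highest in the same samples as PRPH, with 835, 688 and 1256 in the late samples. These correlations are over 19 arrays that share slides and scaling.

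Among the members, INA and KRT18 had the highest plain r, 0.84 over the 19 arrays, and 0.85 after a line in hours was removed, where NEFL and NEFM had 0.87. The slide means of INA and of KRT18 were both lowest on the second slide. KRT8 and KRT18, the obligate partners, had r = 0.69, which rank correlation put at 0.41. PRPH had r = 0.73 with NEFL, 0.69 with INA and 0.76 with KRT19, and after the line was removed these were 0.24, 0.03 and -0.04.

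Of 44 other intermediate filament genes, 43 had a probe, 11 of these were well above background on no array, and 25 were tested. Of the 25, 8 rose and 6 fell, against 21.3% and 32.7% of all genes, and their median difference between late and early was 0.30 against -0.11 for all genes. KRT3, a keratin of the cornea, went from 270 to 561 (slope 0.0153, SE 0.00225, limma adjusted p = 1.6e-05) and IFFO1, a nuclear filament-like protein, from 3856 to 5798 (adjusted p = 0.00348). KRT16, a keratin of stressed skin, had the steepest rising slope (0.024, SE 0.00538, adjusted p = 0.00104), but it was well above background on 0 early and 2 late arrays, at least 2.24-fold higher late. The others that rose were KRT73, SYNM, KRT78, KRT7 and KRT83.

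The lamins, which form the filament layer under the nuclear envelope, were among those that fell. LMNB1 went from 13849 to 7814 (slope -0.0143, SE 0.00201, limma adjusted p = 9e-06) and LMNB2 from 3375 to 2022 (slope -0.013, SE 0.00176, adjusted p = 5.95e-06). IFFO2, a relative of IFFO1, had the steepest falling slope (-0.021, SE 0.00201, adjusted p = 1.02e-07) and went from 3282 to 1314. KRT10, LMNA and BFSP1 also fell. With the slide as a block, KRT3 (adjusted p = 0.0426) and IFFO2 (adjusted p = 0.0108) were called, and the other 12 were not. Scaled to the array median, 4 of the 25 rose and 8 fell, and scaled to spike-in RNA, 1 rose and 7 fell. Of all 16694 genes tested, 1632 rose and 7691 fell under the array median, and 599 rose and 7434 fell under spike-in scaling.

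**Figure D4:**
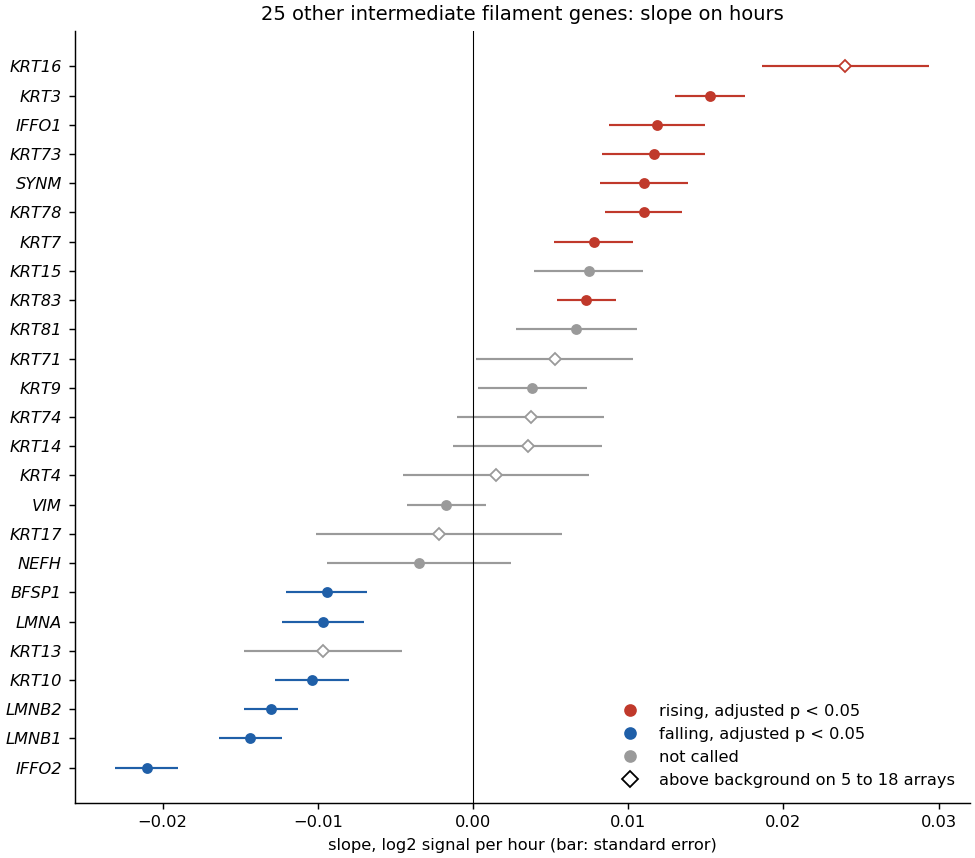
Slope of log2 signal on hours (horizontal axis) for each of the 25 other intermediate filament genes tested, with the standard error as a bar, colour for the call and open diamonds for genes above background on 5 to 18 arrays. The slopes run from -0.021 for IFFO2 to 0.024 for KRT16, with 8 genes called rising and 6 falling.

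Of 20 genes for filament linkers and chaperones, 19 had a probe and were tested, of which 1 rose and 6 fell, against 21.3% and 32.7% of all genes, with a median difference of -0.29 against -0.11 for all genes. PLEC, the plectin that ties filaments to each other and to the membrane, went from 2002 to 2955 (limma adjusted p = 0.0109), and was not called without the 72 h sample. MACF1, which links filaments to microtubules and actin, went from 7709 to 4767 (adjusted p = 2.1e-06), FAM83H, which organizes keratins, from 1637 to 1029 (adjusted p = 4.15e-05) and JUP, the plakoglobin of desmosomes, from 6461 to 4514 (adjusted p = 0.0216). PPL, CRYAB and PKP2 also fell. With the slide as a block, PLEC, MACF1, FAM83H and JUP were not called, and the calls were TCHP, which had not been called without the block, rising (limma adjusted p = 0.0239) and CRYAB falling (adjusted p = 0.0376). Under both the array median and spike-in RNA as the scaling 0 rose, with 10 and 11 falling. Of all 16694 genes tested, 1632 and 599 rose and 7691 and 7434 fell in these settings.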

How the data were processed

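Total RNA of KhES-3 cells was labelled with Cy3 and hybridized to Agilent SurePrint G3 arrays, 1 for each of 19 time points, which were the groups. The authors deposited the intensity of every spot from Agilent Feature Extraction 10.10.1.1 (version per the labels), with the local background subtracted and no scaling between arrays, and with flags for spots well above background, saturated or outlying. The series table that the authors deposited holds the same intensities times 1 factor per array (0.9051 to 1.3777), within 0.1% for all but 0.732% to 1.24% of the probes of an array. Each array had 62976 spots, of which 61657 were not controls. Outlier spots (0.63%) were left out and 0 spots were saturated. Spots of the same probe were averaged, giving 50683 probes, of which 28174 were matched to 20503 symbols (RefSeq, GRCh38.p14). The array's own 75th percentile was used to scale log2 intensities.

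limma 3.58.1 under R 4.3.3 gave the slopes on hours (lmFit, eBayes, Benjamini-Hochberg, adjusted p under 0.05) over the 32113 probes that at least 5 arrays showed well above background. A gene was represented by its probe with the highest mean log2 signal. Where 1 window held no array well above background, a fold is a bound against the dimmest probe called on each array. On simulated data with 200 changed probes, 82 of 100 slopes of 0.02 and 38 of 100 slopes of 0.01 log2 units per hour were recovered, with 6 false calls. The simulated scatter was independent between arrays and probes and held no slide effect. These counts therefore do not cover false calls from errors shared by a slide or an array. Python 3.11.15 was used for the rest.

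The members, the lists and the markers were chosen with earlier results of these data known. Genes were named by this rule: all members, up to 3 genes with the steepest rising and 3 with the steepest falling slope among those called in each list, the 5 genes most like PRPH by Pearson r before and after a line in hours was removed, and undetected defining markers. Some genes of the marker lists are not reported by name here. VIM, NEFH and the remaining called genes named were added after their values were seen. KRT86, FBF1 and TDGF1 had no matched probe. Alternatives were other scalings (array median, the 7 spike-in levels seen on every array, normexp with offset 50 on median pixel intensities and quantile normalization), the series table, other filters, log2 hours, the slide as a block, the mean of a gene's probes, Spearman correlation and each array left out. Only 4 members had an entry among the promoter sequences. With 1 array per time point, p-values measure the scatter around a line, and having 19 arrays limits the precision.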

Additional observations from a re-analysis of the deposited data

How the results depend on the processing

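No paired analysis was possible because no time point had more than 1 array. Over all probes, 8798 rose and 7935 fell. The rising count was 4323 when arrays were scaled to their median, 1485 with spike-in RNA and 1567 with the slide as a block, where 1289 fell. Scaled to the array median 11560 probes fell, and with spike-in RNA 11186 fell. After normexp 7559 probes rose and 6814 fell. Leaving out 1 array at a time gave 8225 to 9040 rising and 7396 to 8122 falling. Of the other intermediate filament genes, 4 rose under the array median, 1 under spike-in RNA and 1 with the slide block, where 1 fell, and 8 to 9 rose and 6 to 7 fell with 1 array left out. Of the linkers, 0 rose under the array median and spike-in RNA and 3 after normexp, and 10, 11 and, with the slide block, 1 fell. With 1 array left out, 0 to 2 linkers rose (0 without the 72 h array and 2 without the 14 h array) and 4 to 6 fell. The late minus early difference of PRPH was 2.06 under the array median and 1.82 under spike-in RNA, and 2.14 to 2.65 with 1 array left out, and its slope with the slide block was 0.0433. The sign turned for DES (-0.10 under the array median, -0.35 under spike-in RNA, slope -0.00174 with the slide block), KRT8 (-0.080 and -0.33), KRT18 (-0.070 and -0.32) and KRT19 (-0.13 under spike-in RNA). The causes were not tested. NEFM was called falling without the 16, 36 or 48 h array. Without the 14, 16, 20 and 72 h arrays, a setting chosen after seeing the data, 8999 probes rose and 7739 fell, 10 of the other filament genes rose and 5 fell, and PRPH differed by 2.14.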
